A study of Homo sapiens with 6 samples.

Results

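The genes described here are MIR381 and its neighbours in and beside the imprinted DLK1 to DIO3 domain of human chromosome 14 (band 14q32). Their RNA was measured in cultures of U-87 MG, a long-used cell line from a human glioblastoma. They were chosen by gene symbol in the platform annotation, from a list of named genes and microRNA prefixes. The rule uses no measured value, but the list was drawn up with earlier results of these data known. The symbols matched 73 of 14884 genes on the array. Of these, 48 lie in the stretch from WDR25 to DIO3 and DIO3OS by RefSeq location (assembly GRCh38.p14) and are called members below. The whole stretch is called the domain below. WDR25 and BEGAIN lie in it but outside DLK1 to DIO3. The other 25 are microRNA genes elsewhere in the genome that a short prefix also takes, such as MIR4310 under MIR431, and their values are given apart. The 48 members comprise 42 microRNA genes and 6 protein-coding or long noncoding genes, on 52 probe sets. DIO3, DIO3OS, MEG8 and MIR433 belong to the same list and have no named probe set here.

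Exposed cells (3 arrays) were kept for 54 h, from 24 h after seeding, in a culture box inside a Faraday chamber, under electromagnetic fields aimed at 4 molecules. Their names are miR-381, CHI3L1 (a secreted glycoprotein), HSP70 (a chaperone) and alpha-kinase 2, whose gene was targeted in mutated form. Unexposed cells (3 arrays) were kept for the same time in a box outside the chamber. Total RNA was hybridised to 1-colour Affymetrix arrays, and the arrays of a group are labelled as biological replicates of the cell line. Since it is not stated whether they came from separate experiments, p-values measure only the spread between these arrays. Box and field cannot be told apart in any difference below.

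Imprinted genes are transcribed from the copy inherited from a single parent. In this domain the paternal copy expresses the protein-coding genes DLK1, RTL1 and DIO3, and the maternal copy expresses noncoding RNAs, among them MEG3, MEG8, MEG9, a run of small nucleolar RNAs and a large cluster of microRNAs. The microRNAs are cut as hairpins from long noncoding transcripts by the Microprocessor (DROSHA with DGCR8), and the mature strand then pairs with messenger RNAs mainly through its seed, bases 2 to 8. MEG3 and many microRNAs of this cluster are reported to be low in gliomas, and the domain is known for its activity in the placenta, the developing brain and stem cells.

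MIR381 gives 2 mature strands, and the 3p strand shares its seed with miR-300, which is made from a neighbouring hairpin of the same cluster. They are shown because miR-381 was a molecule the fields were aimed at, with the seed in capitals (RefSeq, GRCh38.p14, plus strand).
hsa-miR-381-3p (chr14:101045968-101045989): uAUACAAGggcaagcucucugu
hsa-miR-381-5p (chr14:101045927-101045948): aGCGAGGUugcccuuuguauau
hsa-miR-300 (chr14:101041414-101041435): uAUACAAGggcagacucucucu
The 3p strand and miR-300 are the same at 19 of 22 bases, and no other microRNA gene in the RefSeq table has this seed.

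The strands below come from microRNA members named below for a low p-value, a large change or a high level, and from members that share a seed with them. The seed is again in capitals.
hsa-miR-299-5p (chr14:101023800-101023821): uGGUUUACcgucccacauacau
hsa-miR-299-3p (chr14:101023832-101023853): uAUGUGGGaugguaaaccgcuu
hsa-miR-495-3p (chr14:101033804-101033825): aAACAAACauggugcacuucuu
hsa-miR-329-3p (chr14:101026834-101026855): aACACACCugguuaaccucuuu
hsa-miR-154-3p (chr14:101059805-101059826): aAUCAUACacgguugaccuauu
hsa-miR-487a-3p (chr14:101052494-101052515): aAUCAUACagggacauccaguu
hsa-miR-539-3p (chr14:101047369-101047390): aUCAUACAaggacaauuucuuu
hsa-miR-485-3p (chr14:101055464-101055485): gUCAUACAcggcucuccucucu
hsa-miR-541-3p (chr14:101064548-101064569): uGGUGGGCacagaaucuggacu
hsa-miR-654-5p (chr14:101040234-101040255): uGGUGGGCcgcagaacaugugc
All 42 microRNA members matched a mature sequence. They give 80 mature products with 77 distinct sequences and 68 distinct seeds, and 18 of the 42 genes share a seed with another member.

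In exposed cells 1 of the 48 members fell and 0 rose (1.67% and 1.4% of all genes), and 47 did not pass the threshold, which was an adjusted p of 0.05 from limma with Benjamini-Hochberg adjustment over all genes. Over all genes 3.06% passed, so the share of members is near the background. The median log2 change of the members was -0.01, against 0.00 over all genes, and 23 members had positive and 25 had negative values. At an unadjusted p under 0.05 stood 5 of the 48 members, or 10.4%, against 18.9% of all genes. Exposed and unexposed values did not overlap in 6 of the 48, or 12.5%, against 27.0% of all genes. These 6 were BEGAIN, RTL1, MIR381, MIR299, MIR329-1 and MIR495.

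**Figure D1:**
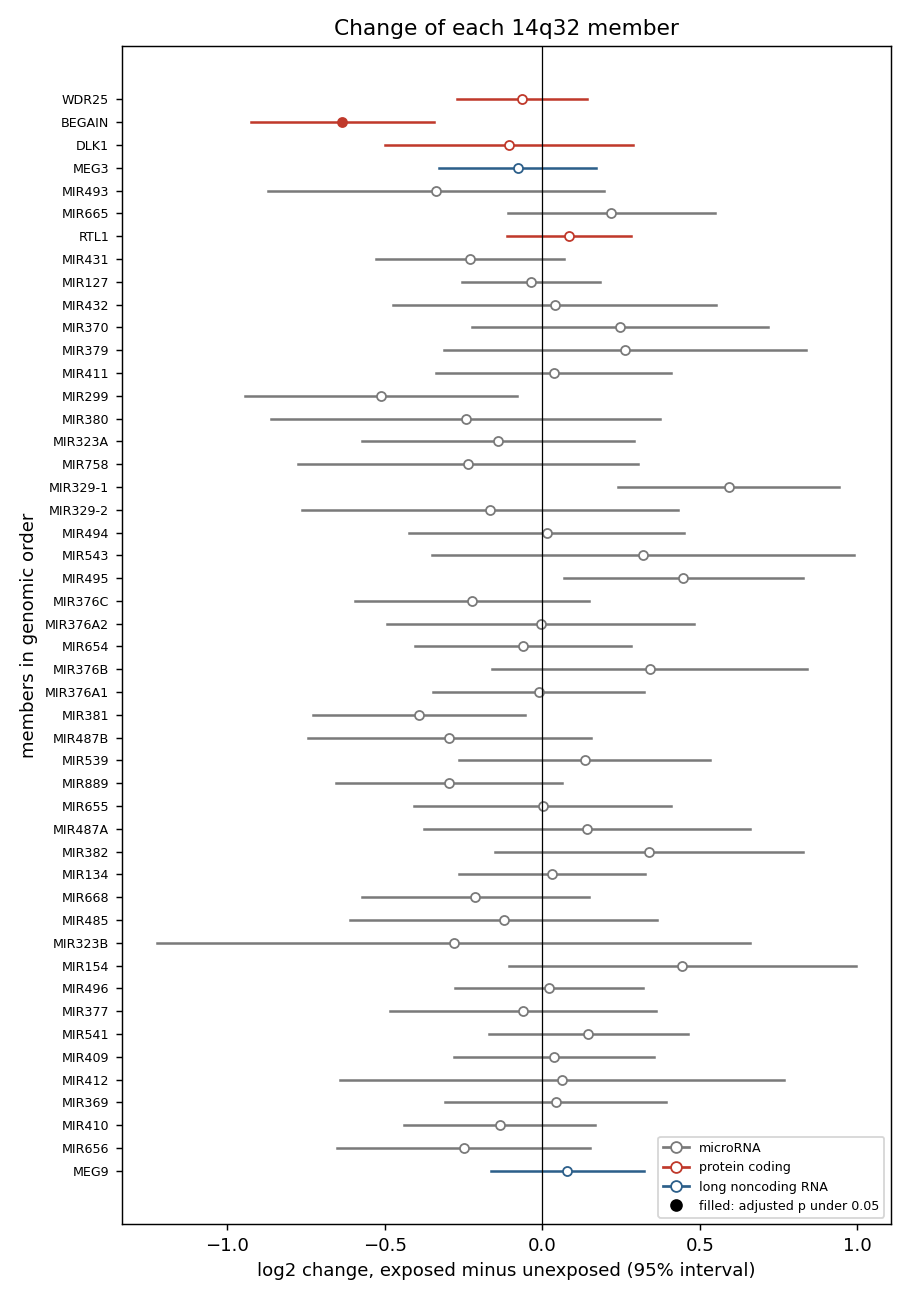
Log2 change (exposed minus unexposed, x axis) of each of the 48 members in genomic order from top to bottom, with 95% intervals from limma. BEGAIN has the one filled point, which marks an adjusted p under 0.05, and the microRNAs scatter on both sides of 0.

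BEGAIN, which encodes a protein that binds the postsynaptic scaffold PSD-95 in rat brain, was the member that fell. It lies between WDR25 and DLK1, in the stretch used here but outside DLK1 to DIO3. Its log2 values were 4.99, 4.68 and 4.64 in exposed cells, against 5.37, 5.50 and 5.35 in unexposed cells. All exposed arrays were below all unexposed arrays, and exposed replicate 1 was the highest of its group. The change was -0.63 (SE 0.13, 95% interval -0.92 to -0.34), or 1.55-fold lower, with a limma adjusted p of 0.0432 over genes. The call was lost with any array left out (limma adjusted p 0.0806 to 0.153), with the change then at -0.75 to -0.57. It was also lost with adjustment over all probe sets (0.0699), without a mean-variance trend (0.163) and with the replicate number as a block (0.140). No gene at all passed without the trend, with the block or with most single arrays left out. Losses in those fits, here and below, are not particular to the gene named.

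WDR25, a WD-repeat protein gene next to BEGAIN, had values of 5.50, 5.37 and 5.44 in exposed cells, against 5.45, 5.53 and 5.52 in unexposed cells. The groups overlapped. The change was -0.06 (interval -0.27 to 0.14, limma adjusted p = 0.782). The difference between the changes of BEGAIN and WDR25 was not tested.

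DLK1, a transmembrane relative of the Notch ligands, stood at 4.16, 4.09 and 4.18 in exposed cells, against 4.54, 3.92 and 4.29 in unexposed cells. The unexposed arrays spread around the narrow exposed values, with an SD of 0.31 against 0.05 in exposed cells. The change was -0.11 (interval -0.50 to 0.29, limma adjusted p = 0.815), and 0.04 without unexposed replicate 1.

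RTL1, a gene derived from a retrotransposon and needed in the mouse placenta, stood at 5.85, 5.85 and 5.98 in exposed cells, against 5.84, 5.76 and 5.83 in unexposed cells. All exposed arrays were above all unexposed arrays by a small margin. The change was 0.08 (interval -0.11 to 0.28, limma adjusted p = 0.674). Its second probe set, whose exposed arrays averaged 3.56 ± 0.26 and unexposed arrays 3.48 ± 0.12 (SD, n = 3 each), gave a change of 0.08 with overlapping groups. RTL1 lies opposite MIR431, MIR127 and MIR432, whose hairpins are read from the other strand. In the numbering of probe sets, the first RTL1 set falls between those of MIR431 and MIR127. Its second set falls between BEGAIN and the second set of MEG9. The strand that each set reads is not given, so it is uncertain which transcript the first set reports. Whether the array's signals keep the strands apart was not tested.

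MEG3, a maternally expressed noncoding RNA with tumour suppressor activity in cell culture, stood at 4.73, 4.79 and 4.89 in exposed cells, against 4.97, 4.79 and 4.89 in unexposed cells. The groups overlapped, and the change was -0.08 (interval -0.33 to 0.17, limma adjusted p = 0.774). A second, dim MEG3 probe set had a change of -0.05, where exposed arrays averaged 2.05 ± 0.22 and unexposed arrays 2.10 ± 0.40 (SD, n = 3 each). MEG9, a noncoding RNA at the far end of the microRNA cluster, stood at 5.23, 5.43 and 5.34 in exposed cells, against 5.14, 5.33 and 5.29 in unexposed cells. Its change was 0.08 (interval -0.16 to 0.32, limma adjusted p = 0.760), and its second probe set was at -0.01. For MEG3, MEG9, RTL1, DLK1 and WDR25 the 95% intervals lie within a log2 change of 1 (2-fold) in either direction.

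**Figure D2:**
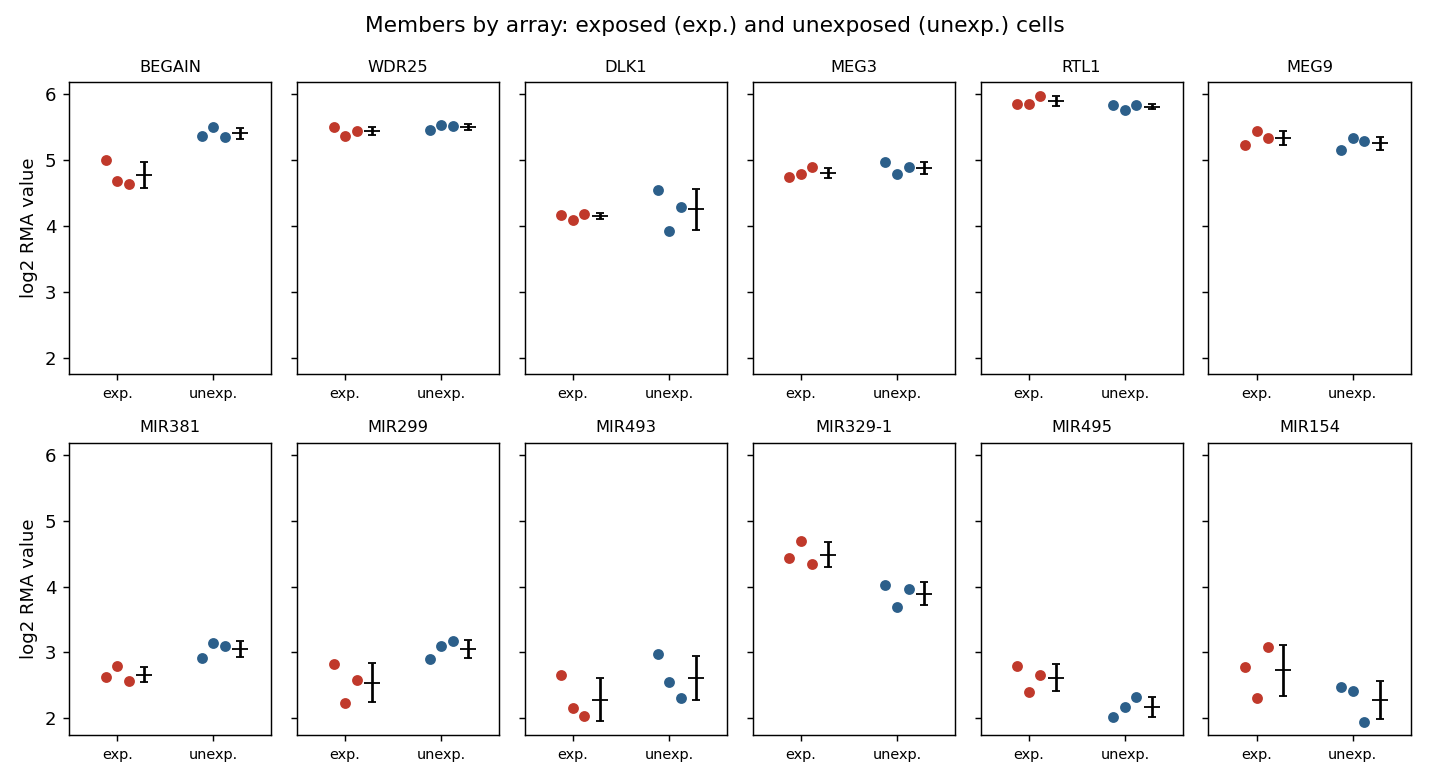
Log2 RMA values of the 6 protein-coding and long noncoding members and of 6 microRNA members on each array, with exposed cells in red on the left and unexposed cells in blue on the right, and means with SD as black bars (n = 3 each). BEGAIN, RTL1, MIR381, MIR299, MIR329-1 and MIR495 have groups that do not overlap.

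Of the 42 microRNA genes 0 passed the threshold by limma over all genes, and 4 had an unadjusted p under 0.05, of which 2 had higher and 2 had lower values in exposed cells (8.71% and 10.2% of all genes in those directions). Positive and negative changes were equal in number, at 21 each, and the median change was 0.00. MIR381 stood at 2.62, 2.79 and 2.57 in exposed cells, against 2.92, 3.15 and 3.10 in unexposed cells. The exposed arrays were all below the unexposed ones, at a change of -0.39 (SE 0.14, limma adjusted p = 0.194). Over the fits that each lack an array, the change of MIR381 lay between -0.46 and -0.34, with limma adjusted p of 0.196 to 0.410. MIR300, which gives the strand with the same seed, averaged 1.76 ± 0.21 on exposed arrays and 1.71 ± 0.11 on unexposed arrays (SD, n = 3 each), a change of 0.04 (limma adjusted p = 0.935). Here and below, the values are those of probe sets named for microRNA genes. Whether they follow the mature strands, rather than hairpins or longer transcripts, was not tested.

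MIR299 had the most negative change among the microRNA members. It stood at 2.83, 2.23 and 2.57 in exposed cells, against 2.90, 3.09 and 3.17 in unexposed cells, so that the groups lay apart by a small margin. The change was -0.51 (SE 0.19, limma adjusted p = 0.187). MIR493, at the proximal end of the cluster, came next after MIR381 in this order, with a change of -0.34 (SE 0.23, limma adjusted p = 0.502), and its groups overlapped.

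MIR495 stood at 2.80, 2.39 and 2.66 in exposed cells, against 2.02, 2.17 and 2.33 in unexposed cells. All exposed arrays were above all unexposed arrays, at a change of 0.45 (SE 0.16, limma adjusted p = 0.189). MIR154 had a change of 0.45 (SE 0.24, limma adjusted p = 0.369) with overlapping groups. MIR487A, whose 3p strand shares the seed of miR-154-3p shown above, was at 0.14 (SE 0.22).

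MIR329-1 had the lowest p among the microRNA members. It stood at 4.43, 4.69 and 4.34 in exposed cells, against 4.03, 3.70 and 3.96 in unexposed cells. The exposed arrays were all above the unexposed ones, at a change of 0.59 (SE 0.15, 1.51-fold, limma adjusted p = 0.0791). Its near copy MIR329-2, the next hairpin along the chromosome, stood at 2.67, 3.40 and 2.58 in exposed cells, against 2.71, 3.14 and 3.30 in unexposed cells. Those groups overlapped, at a change of -0.17 (SE 0.26, limma adjusted p = 0.809). The hairpins are shown with their mature strands in capitals, since both give the same 5p and 3p strands.
MIR329-1 (chr14:101026785-101026864, plus strand): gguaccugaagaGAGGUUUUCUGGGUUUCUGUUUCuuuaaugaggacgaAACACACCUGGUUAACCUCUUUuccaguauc
MIR329-2 (chr14:101027100-101027183, plus strand): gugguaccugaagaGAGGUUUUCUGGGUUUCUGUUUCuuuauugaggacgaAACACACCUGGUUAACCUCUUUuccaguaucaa
Over the 80 bases of MIR329-1 the hairpins differ by A40U (counted from the 5′ end of MIR329-1, its base first), which lies between the mature strands. They match at 79 of 80 bases, so how far either probe set tells the copies apart is uncertain.

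Other members with shared sequence were likewise mixed in sign. MIR376A1 had 2 probe sets, with changes of -0.01 and 0.10, and MIR376A2, whose 3p strand is the same, was at -0.0043. MIR376B, with the same 3p seed, was at 0.34 (SE 0.22). MIR539 and MIR485, which share a 3p seed, had changes of 0.14 and -0.12, and MIR541 and MIR654, which share a seed between a 3p and a 5p strand, of 0.15 and -0.06. None of these passed by limma.

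Both ends of the cluster held changes of either sign. The 6 proximal microRNAs, from MIR493 to MIR370, had changes of -0.34 to 0.25, with 3 positive and 3 negative. The 36 distal ones, from MIR379 to MIR656, had changes of -0.51 to 0.59, with 18 positive and 18 negative. Of 41 pairs of neighbouring microRNA members 23 had changes of the same sign. Downstream of MIR381, MIR487B was at -0.30, MIR539 at 0.14 and MIR889 at -0.30, and 0 of these passed by limma.

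Most microRNA members were dim. Of the 42, 30 had a mean level at or below the median of all probe sets on the arrays (3.96) and 20 at or below their lower quartile (2.68), while all 6 longer members were above the median. The table has no detection calls, so it was not settled which dim members were transcribed at all. The microRNA members also varied more between replicates than the longer ones. The median replicate SD was 0.23 for the microRNA members and 0.09 for the longer members, against 0.13 over all genes. Neither trait is particular to the cluster. Over 1021 other microRNA genes the median replicate SD was 0.22, and 662 of them were at or below the median level of all probe sets. The 95% intervals of 41 of the 42 microRNAs lay within a log2 change of 1 in either direction, but those of 14 lay within 0.5. The widest was that of MIR323B, at -1.22 to 0.66. For the other 28, a change of 0.5 on the log2 scale lies inside the interval.

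**Figure D3:**
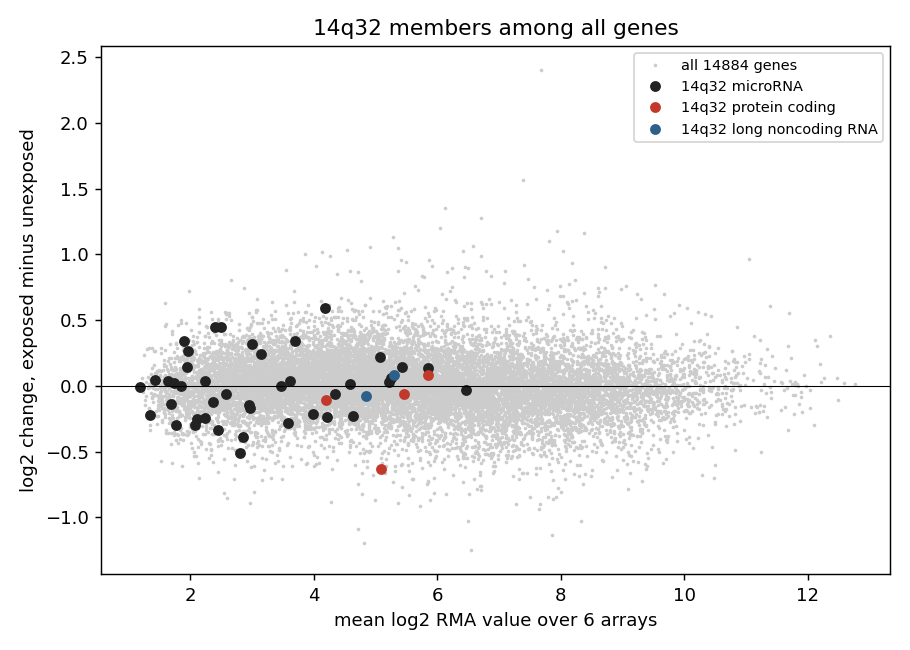
Log2 change (exposed minus unexposed) against mean log2 level over 6 arrays, with all 14884 genes in grey, microRNA members in black, protein-coding members in red and long noncoding members in blue. The microRNA members lie mainly at the dim end, and BEGAIN at -0.63 is the lowest member.

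The level of a microRNA probe set went with the base composition of its hairpin. Over the 38 microRNA members with a hairpin sequence, level and the percentage of G and C had a Pearson correlation of 0.55 and a Spearman correlation of 0.52. Over 814 other microRNA genes the values were 0.68 and 0.71. These are correlations across genes on the same 6 arrays, which are not independent. The correlation of G and C content with the log2 change was -0.13 (Pearson) and -0.11 (Spearman) over the 38 members, and 0.15 and 0.16 over the 814 other genes. Of the 3 brightest microRNA members, MIR127 (mean level 6.46) and MIR541 (5.43) had hairpins of 52.6% and 53.6% G and C, while MIR539 stood at 5.84 with 30.8% G and C. MIR539 had values of 5.60, 6.21 and 5.92 in exposed cells, against 5.61, 6.01 and 5.71 in unexposed cells, a change of 0.14 (limma adjusted p = 0.754). MIR127 and MIR541 had changes of -0.03 and 0.15, and their groups overlapped as well.

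**Figure D4:**
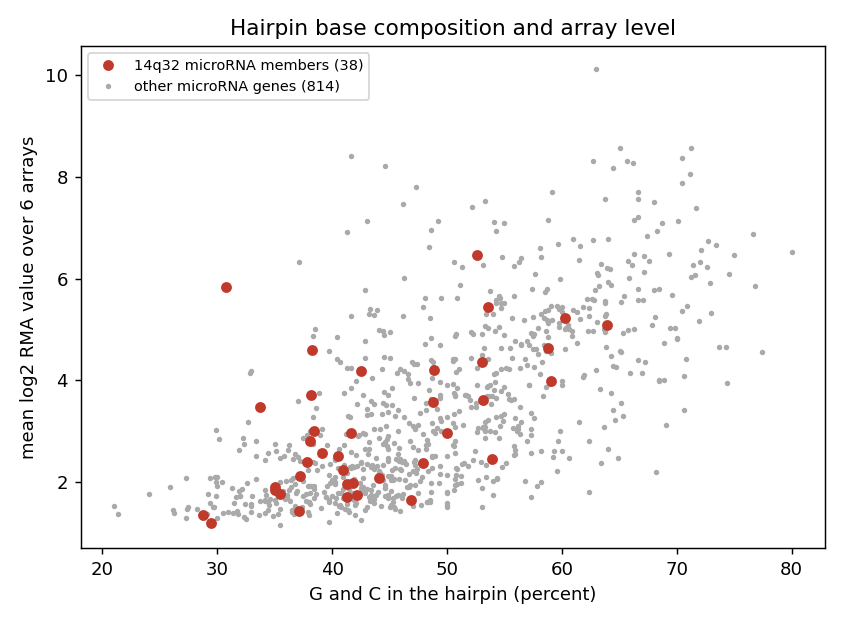
Mean log2 RMA value over 6 arrays against the percentage of G and C in the hairpin, for the 38 microRNA members with a hairpin sequence in red and 814 other microRNA genes in grey. Levels are higher at higher G and C content in both sets, and MIR539 stands above its neighbours at 30.8% G and C.

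Other microRNA genes of the array give the same counts for comparison. Of 1021 other microRNA genes (those the rule does not match, in the domain or elsewhere) 4 passed the threshold, 2 in each direction, which is 0.392%. Their groups did not overlap in 11.6%, against 9.52% of the microRNA members. Their median level was 3.04, against 2.83 for the members. Of the 25 prefix matches outside the domain 0 passed by limma and 2 had an unadjusted p under 0.05, with changes between -0.65 and 0.47. These 2, named after their values were seen, were MIR4314 at 0.47 (limma adjusted p = 0.0710) and MIR1276 at -0.65 (limma adjusted p = 0.263). Among 12 further measured microRNA genes in or near the domain 0 passed by limma and 0 had an unadjusted p under 0.05. The lowest p-values in each direction there were those of MIR2392 (-0.16), MIR1197 (-0.18), MIR1185-1 (0.30) and MIR136 (0.21). The small nucleolar RNAs of the domain have no named probe set here.

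Among the genes that flank the domain on chromosome 14, 7 were measured of 14 list entries (WARS1 is entered under an older symbol as well). Of these 1 fell and 6 did not pass, against 1.67% of all genes that fell. EML1, a microtubule-associated protein gene, fell by 0.47 on the log2 scale (SE 0.09, limma adjusted p = 0.0403), where exposed arrays averaged 8.01 ± 0.09 and unexposed arrays 8.48 ± 0.15 (SD, n = 3 each). EVL, a regulator of actin filaments, was at -0.33 (limma adjusted p = 0.161), and WARS1, the tryptophan transfer RNA synthetase, one of 0.04. The call of EML1 was lost with any array left out, with limma adjusted p of 0.0674 to 0.146. With adjustment over all probe sets it was lost too (limma adjusted p = 0.0659).

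The list of genes that keep or regulate imprints also holds the transcription factor genes MEF2A, MEF2C and MEF2D. Of its 22 entries 17 were measured, of which 4 fell, 0 rose and 13 did not pass. Over all genes 1.67% fell and 1.4% rose. EZH2, the enzyme of the Polycomb complex that methylates histone H3, fell most, to 7.63, 7.30 and 7.80 in exposed cells, against 8.24, 8.48 and 8.33 in unexposed cells. All exposed arrays were below all unexposed arrays, at a change of -0.77 (SE 0.13, 1.71-fold lower, limma adjusted p = 0.0324). SUZ12, a further subunit of the same complex, changed by -0.30 (SE 0.06, limma adjusted p = 0.0384). DNMT1, which copies DNA methylation onto new strands, changed by -0.26 (SE 0.05, limma adjusted p = 0.0384), and UHRF1, which brings DNMT1 to those strands, by -0.28 (SE 0.06, limma adjusted p = 0.0442). The median of the list was -0.15, against 0.00 over all genes, and 14 of 17 values were negative, as were 7341 of 14884 over all genes. ZFP57, a zinc finger protein that guards imprints in embryonic cells, was at 0.18 (limma adjusted p = 0.489), and the methyltransferase DNMT3A was at 0.05, and at -0.01 without unexposed replicate 2.

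In the microRNA processing list 10 of 21 entries had a named probe set, and DROSHA, DICER1 and the Argonaute genes had none here. DGCR8, the RNA-binding partner of DROSHA, fell to 6.02, 6.01 and 6.17 in exposed cells, against 6.53, 6.91 and 6.54 in unexposed cells. The exposed arrays were all below the unexposed ones, and unexposed replicate 2 was the highest. The change was -0.60 (SE 0.12, 1.52-fold lower, limma adjusted p = 0.0439), and -0.48 without unexposed replicate 2. TNRC6C, which works with Argonaute in silencing, had a larger change of -0.71 that did not pass (SE 0.16, limma adjusted p = 0.0593). TARBP2, a partner of DICER1, was at 0.09 and LIN28A, which blocks the maturation of let-7, at 0.23, and neither passed. The calls of DGCR8, DNMT1, SUZ12 and UHRF1 were lost with any array left out, and that of EZH2 with any array but exposed replicate 3. All of these calls were also lost with adjustment over all probe sets (limma adjusted p 0.0507 to 0.0716).

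Among 26 measured Notch pathway genes, in which DLK1 acts as an atypical ligand, 1 rose and 25 did not pass. That share, 3.85%, is near the 3.06% of all genes that passed. NCSTN, the nicastrin subunit of the protease that releases the Notch intracellular domain, rose by 0.41 (SE 0.08, limma adjusted p = 0.0484). Its call was lost with any array left out and with adjustment over all probe sets (limma adjusted p = 0.0788). It was also lost with arrays centred on their medians (0.0568) and when probe sets were averaged per gene (0.0504). The ligand JAG1 had a change of 0.38 (limma adjusted p = 0.0516). The receptors NOTCH2 and NOTCH1 had changes of -0.20 (limma adjusted p = 0.0910) and -0.22 (limma adjusted p = 0.207). The median of the list was 0.05.

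Genes of other imprinted domains did not pass in any case by limma (0 of 20 measured, of 35 entries), and 3 had an unadjusted p under 0.05, or 15%, against 18.9% of all genes. These were RB1, the retinoblastoma tumour suppressor, at 0.24 (limma adjusted p = 0.0645), the zinc finger gene PLAGL1 at 0.16 and the receptor gene IGF2R at 0.18, the last named after its values were seen. The lowest p-values among negative changes were those of L3MBTL1 (-0.27) and BLCAP (-0.19). H19, IGF2 and SNRPN were not measured by a named probe set. Of 6 genes reported as targets of miR-381, 4 had a named probe set, 0 passed by limma and 0 had an unadjusted p under 0.05. The kinase WEE1 was at -0.11, the brain adhesion protein LRRC4 at -0.11 and the transcription factor TWIST1 at 0.01, and the chemokine receptor CXCR4 at -0.04. Of 15 thyroid hormone genes, on which DIO3 acts by inactivating the hormone, 2 had a named probe set, NCOA1 at -0.03 and KLF9 at 0.01, and neither passed.

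**Figure D5:**
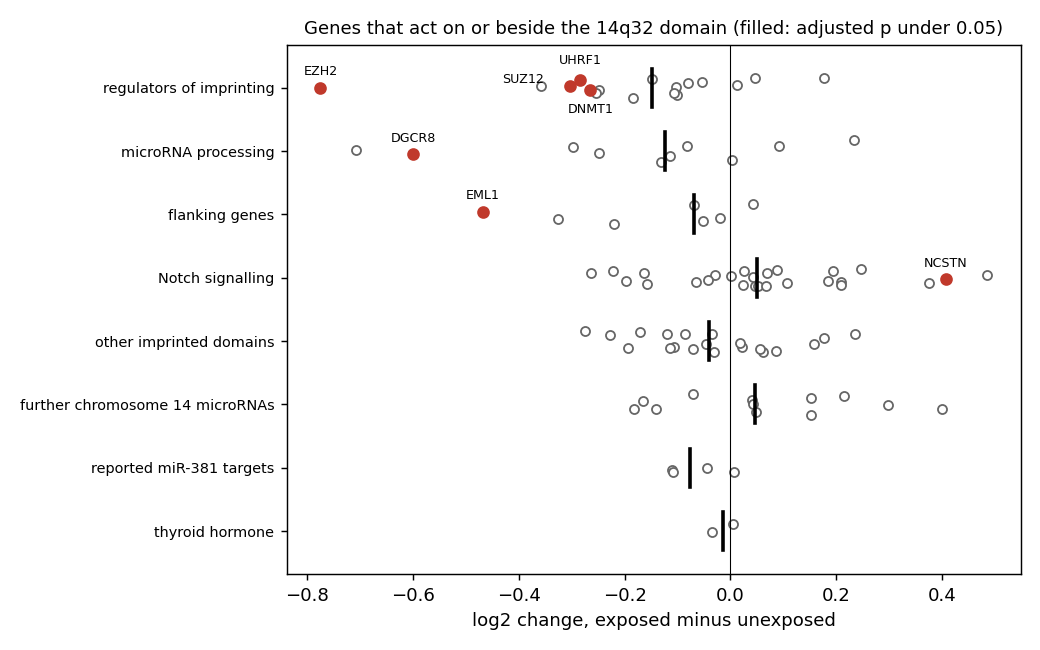
Log2 change (exposed minus unexposed) of each measured gene in 8 lists of genes that act on or lie beside the domain, with the list median as a black bar and genes past an adjusted p of 0.05 filled and named. The 4 imprinting regulators that passed, DGCR8 and EML1 lie below 0, and NCSTN lies above it.

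The 10 measured glioma markers, among them VIM, CD44, CHI3L1, EGFR and GFAP, had mean levels of 3.26 to 11.7 in exposed and 3.57 to 11.8 in unexposed cells, which are not comparable between probe sets. Of these EGFR fell by 0.30 on the log2 scale (limma adjusted p = 0.0348) and 9 did not pass, against 1.67% of all genes that fell. S100B (mean level 3.47) and SOX2 (3.60) lay below the median of all probe sets (3.96). GFAP had a change of 0.35 and S100B of -0.42, and over the 10 markers 3 changes were positive and 7 negative. The call of EGFR was lost with any array left out (limma adjusted p 0.0684 to 0.120) and over all probe sets (0.0565). Of 14 measured markers of neurons, myeloid, endothelial, epithelial and fibroblast cells 2 rose, MAP2 by 0.91 and LUM by 0.83 (limma adjusted p = 0.0287 for each), and 12 did not pass, against 1.4% of all genes that rose. With an array left out, MAP2 kept its call only without exposed replicate 3 or unexposed replicate 1, and LUM only without exposed replicate 3 (limma adjusted p 0.0294 to 0.120 for each). All 14 changes were positive, as were 7543 of 14884 over all genes. These 14 markers had mean levels of 2.63 to 12.3 in exposed and 2.35 to 12.2 in unexposed cells. Their part in the changes given above was not tested. In bulk RNA, fewer cells of a type and less RNA per cell cannot be told apart.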

How the data were processed

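Total RNA of 3 exposed and 3 unexposed U-87 MG samples, grouped by sample title, was measured on Affymetrix arrays. The deposited log2 values are RMA summaries per probe set, made by the authors with Affymetrix Expression Console 3.0 and Transcriptome Analysis Console 3.0, per the submitters' processing notes. Other settings of these programs are not stated in the labels. RMA makes array distributions alike, so a change in total RNA per cell would not be visible. Array medians were 3.96 to 3.99. Arrays have no read depth, and precision depends on how many arrays there are and on the spread between them.

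Differences (exposed minus unexposed) were computed over all 53617 probe sets with limma 3.58.1 in R 4.3.3 (moderated two-sided test, eBayes with trend, no covariates). Each of 14884 genes was its probe set with the highest mean, and p-values were adjusted by Benjamini-Hochberg over these genes. Of the probe sets, 16098 had 1 gene symbol and 37519 were unnamed here. A listed gene is called measured where it has a named probe set, so the others may lie among the unnamed ones. RefSeq tables of GRCh38.p14 served for names, neighbourhood and sequences. Members and lists were chosen with earlier results of these data known. Named genes are all longer members, the microRNAs with an unadjusted p under 0.05, the 3 highest and 3 lowest changes and 3 highest levels, members sharing a printed seed and, per list, called genes and the lowest p-values in each direction. Other genes were named after their values were seen, and the miR-299 and miR-495 sequences were likewise added. On simulated arrays the procedure found 30% of the genes given a shift of 0.5 log2 and 72% of those given 1 log2, among 14884 genes. The shifted genes were drawn from all genes, whose median replicate SD was 0.13, against 0.23 for the microRNA members. Recovery for the members alone was not simulated. Replicate numbers did not pair the samples: the correlations of deviations of same-numbered arrays were -0.016, -0.025 and 0.010. Python 3.11.15 and matplotlib 3.10.9 drew the figures.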

Additional observations from a re-analysis of the deposited data

How the results depend on the processing

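The number of all genes past the threshold was 456, and 0 with the replicate number as a block (2286 at an unadjusted p under 0.05), 0 when the variance prior had no trend with level (2220 at that unadjusted p), 162 when adjusted over all probe sets, 753 over probe sets above the median level, and 0 to 325 with an array left out (325 without exposed replicate 3, 67 without unexposed replicate 1 and 0 without any other, where 2065 to 2287 stood at an unadjusted p under 0.05). The number of members past it was 1, and 0 under the replicate block, without the trend, over all probe sets and with any array left out (limma, 4 to 6 members at an unadjusted p under 0.05 in these settings). BEGAIN kept a change of -0.63 with limma adjusted p of 0.140 under the replicate block, 0.163 without the trend and 0.0699 over all probe sets, and with an array left out its change was -0.75 to -0.57. The member median, -0.008, lay between -0.046 and -0.0035 with an array left out. The DLK1 change ran from -0.27 to 0.040 with an array left out. MIR381 kept its sign and stayed above the threshold in all 12 alternatives that gave a value (-0.46 to -0.34), and it falls outside the probe sets above the median level. WDR25, MEG3, RTL1 and MEG9 kept their signs in all 13 alternatives run and did not pass in any. Values that changed sign elsewhere were small. With quantile normalization again KLF9 was at -0.0054, TWIST1 at -0.0022 and NCOA1 at 0.0015, and with arrays centred on their medians KLF9 was at -0.0066 and TWIST1 at -0.0052. With an array left out KLF9 ran from -0.061 to 0.10, TWIST1 from -0.027 to 0.033, NCOA1 from -0.080 to 0.017, DNMT3A from -0.011 to 0.12, MIR127 from -0.099 to 0.025, MIR300 from -0.051 to 0.16, MIR539 from -0.016 to 0.29 and WARS1 from -0.027 to 0.11. JAG1 passed with quantile normalization again (limma adjusted p = 0.0497), and JAG1, RB1 and TNRC6C passed over probe sets above the median level (0.0339, 0.0406 and 0.0413). The calls of EML1, EZH2, SUZ12, DNMT1, UHRF1, DGCR8, NCSTN, EGFR, MAP2 and LUM were lost under the replicate block (limma adjusted p 0.127 to 0.174) and without the trend (0.159 to 0.234). Over all probe sets, those of EML1, EZH2, SUZ12, DNMT1, UHRF1, DGCR8, NCSTN and EGFR were lost (limma adjusted p 0.0507 to 0.0788). UHRF1 lost its call in 10 of the 13 alternatives (limma adjusted p 0.0558 to 0.224). The replicate numbers did not pair the arrays, so the block result bears on the fit alone. The causes were not tested.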
